A study of Oryza sativa with 17 samples.

Results

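The glutathione S-transferase (GST) genes of rice were followed in imbibed seeds of weedy rice WR04-6 and cultivated rice QSZ held at 10 °C. A gene was taken as a member when its deposited description held the words glutathione S-transferase, which 62 of the 23223 genes in the table did. The rule used the wording only and no expression value. Time is counted in days after imbibition (DAI). WR04-6 had 3 libraries at each of 10, 12 and 14 DAI, and QSZ had 3 at 12 and 14 DAI and 2 at 10 DAI (replicates 2 and 3), which makes 9 and 8 libraries. The accessions stand for weedy and cultivated rice by 1 accession each, and whole seeds were sampled, so fewer cells of a type and less RNA per cell cannot be told apart. The comparison asks which transcripts differ between a weedy and a cultivated accession during germination in the cold.

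GSTs join the tripeptide glutathione to reactive or oxidised compounds, and some act as peroxidases or as carriers of pigments and hormones. In plants the tau and phi classes are the largest and take part in detoxification of herbicides and stress products. Theta members reduce organic hydroperoxides, zeta members isomerise maleylacetoacetate in tyrosine breakdown, and dehydroascorbate reductases (DHAR) return oxidised ascorbate to its reduced form. Many plant GST genes lie in tandem arrays that arose by local duplication. The class was read from the description. There were 22 tau, 11 phi, 6 theta, 2 zeta and 2 DHAR genes, and 1 each of lambda, TCHQD (tetrachlorohydroquinone dehalogenase-like) and the membrane-bound microsomal type. The other 16 descriptions named no class.

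Levels and differences are given on separate scales. FPKM, the fragments per kilobase of transcript scaled to sequencing depth, is a level that allows for gene length. The log2 fold change came from the deposited estimated counts and is always WR04-6 over QSZ, or the later over the earlier time point. DEGs are genes whose p-value in edgeR's quasi-likelihood test lay below 0.05 after Benjamini-Hochberg (BH) adjustment over 21949 tested genes and whose log2 fold change reached 1 or −1. Of the 62 genes, 60 were tested. LOC_Os03g39850 and LOC_Os10g38540 were too low in nearly all libraries.

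A WR04-6 library held 51209499 to 72494532 estimated counts and a QSZ library 33280479 to 68909607, with both QSZ libraries of 10 DAI the shallowest. Pearson's r of log2(FPKM + 0.1) across genes was 0.939 to 0.984 between libraries of 1 group. Of the markers of other tissue in the seed, 42 storage protein and oleosin genes summed to 10370 to 33700 FPKM in WR04-6 libraries and 31180 to 99550 FPKM in QSZ libraries. The 16 green shoot genes summed to 95.0 to 408.5 FPKM in WR04-6 and 88.5 to 489 FPKM in QSZ, and the 7 root genes to 10.4 to 18.6 FPKM in WR04-6 and 1.42 to 11.4 FPKM in QSZ. Storage and root transcripts thus moved with accession, and their part in the GST differences below was not tested.

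Over the 3 time points together, the summed level of the GST genes overlapped between the accessions, while the members that made it up differed. The sum was 656 to 993 FPKM in WR04-6 libraries (median 762) and 578 to 1427 FPKM in QSZ libraries (median 953). At 10 DAI alone it did not overlap, with 656 to 773 FPKM in WR04-6 and 841 and 1427 FPKM in QSZ, while at 12 and 14 DAI it did. These FPKM sums were not rescaled between libraries as the counts behind the fold changes were. The tau genes made up 35.3% to 40.2% of that sum in WR04-6 (median 38.1%) and 13.8% to 19.4% in QSZ (median 15.6%). The phi genes made up 26.2% to 31.2% in WR04-6 (median 28.3%) and 40.2% to 55.8% in QSZ (median 47.0%). Both class shares therefore separated the libraries of the accessions. The tau gap lay in LOC_Os10g38630 and LOC_Os07g28480, which were singled out after their values were seen. Without both, the other 20 tau genes held 14.9% to 17.8% in WR04-6 and 13.4% to 18.5% in QSZ. The phi gap lay in LOC_Os01g55830, since the other 10 phi genes held 4.44% to 9.24% in WR04-6 and 5.18% to 14.2% in QSZ. Expression was concentrated in few genes, as the 10 most abundant members held a median of 76.0% of the sum in WR04-6 and 80.7% in QSZ. Over the 17 libraries, 15 members averaged at least 10 FPKM, 23 averaged 1 to 10 FPKM and 24 stayed under 1 FPKM.

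**Figure D1:**
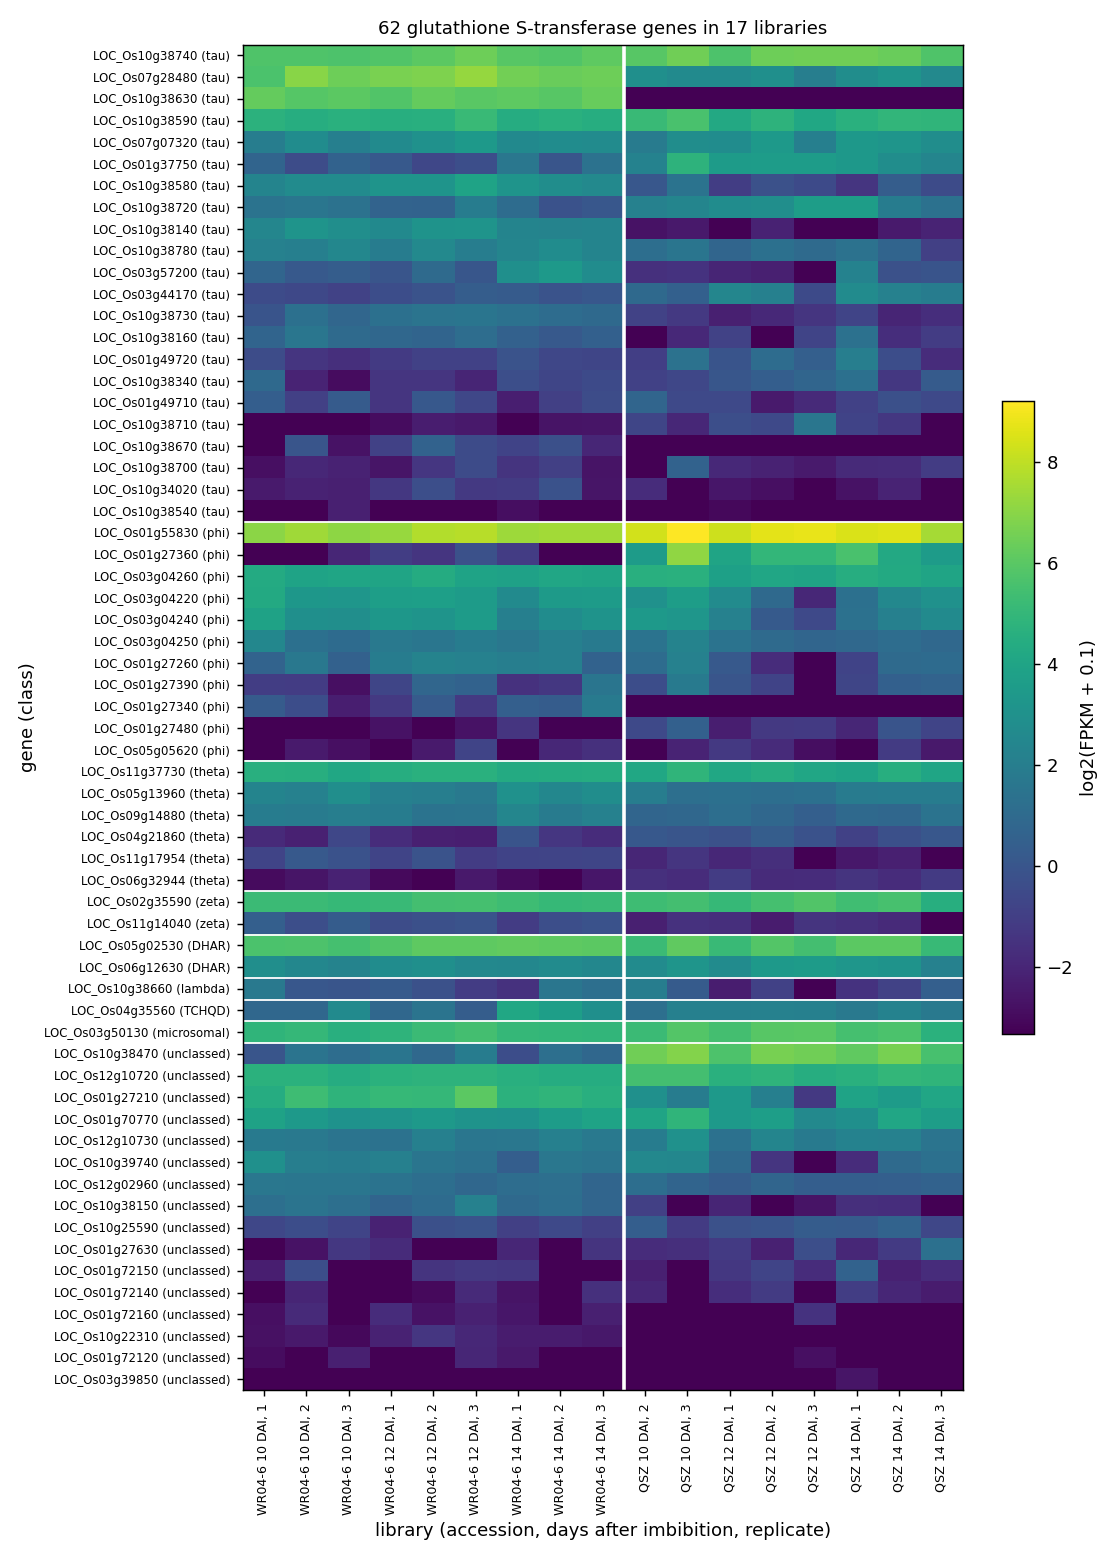
Level of each of the 62 GST genes (rows, grouped by class) in each of the 17 libraries (columns, WR04-6 left of QSZ), as log2(FPKM + 0.1). LOC_Os10g38630 is bright in all 9 WR04-6 columns and at 0 in all 8 QSZ columns. LOC_Os10g38470 and LOC_Os01g27360 are higher in all 8 QSZ columns, the first low but above 0 in WR04-6 and the second at or near 0 there.

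Between the accessions, GST genes were found both among the higher and among the lower genes at each time point. At 10 DAI, 8 of 60 were higher and 12 lower in WR04-6, against 12.1% and 11.4% of all genes tested. At 12 DAI, 13 were higher and 12 lower, against 16.3% and 13.2%. At 14 DAI, 11 were higher and 7 lower, against 10.5% and 10.9%. In either direction this was 33.3%, 41.7% and 30.0% of the tested GST genes at 10, 12 and 14 DAI, beside 23.6%, 29.5% and 21.3% of all genes. In all, 32 of 60 were DEGs at 1 or more time points, where 40.8% of all genes were. At all 3 time points 7 were higher (6.34% of all genes) and 5 lower (6.05%). The median log2 fold change of the 60 genes was −0.40, 0.14 and −0.17 at 10, 12 and 14 DAI, beside 0.03, 0.06 and 0.08 over all genes, and the same with genes at 0 in a group put at their bound. These medians and the split depend on scaling. With library totals alone, all genes shifted up by 0.22, 0.44 and 0.38 and the GST medians became −0.21, 0.55 and 0.12. That last median, at 14 DAI, was 0 with genes at 0 in a group put at their bound. The GST counts were then 11 higher and 9 lower, 15 and 9, and 14 and 6. No share of all genes under that scaling stands beside these counts, so they do not set GST genes apart.

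The libraries of WR04-6 and QSZ did not overlap in 36, 38 and 29 GST genes at 10, 12 and 14 DAI, where 63.0%, 66.1% and 58.2% of all genes did not. All 20 DEGs at 10 DAI, 24 of 25 at 12 DAI and all 18 at 14 DAI were among them. A DEG already needs a difference that is large beside the spread, so this count is no separate support, and the share among all DEGs was not computed. The exception at 12 DAI was the tau gene LOC_Os03g44170. By class, 9 tau genes were higher and 6 lower at 1 or more time points of 21 tested, and 3 phi genes were higher and 3 lower of 11. Of the theta genes, 2 of 6 were lower. Beside these class counts, 40.8% of all genes were DEGs in either direction at 1 or more time points. No gene described as zeta, DHAR or lambda was a DEG between the accessions. Some other fits, given below, called 1 zeta gene or up to 2 theta genes higher in WR04-6. The unclassed LOC_Os12g10720, which carries the tyrosine metabolism annotation of the zeta genes, was lower in WR04-6 at 10 DAI (log2 fold change −1.08).

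**Figure D2:**
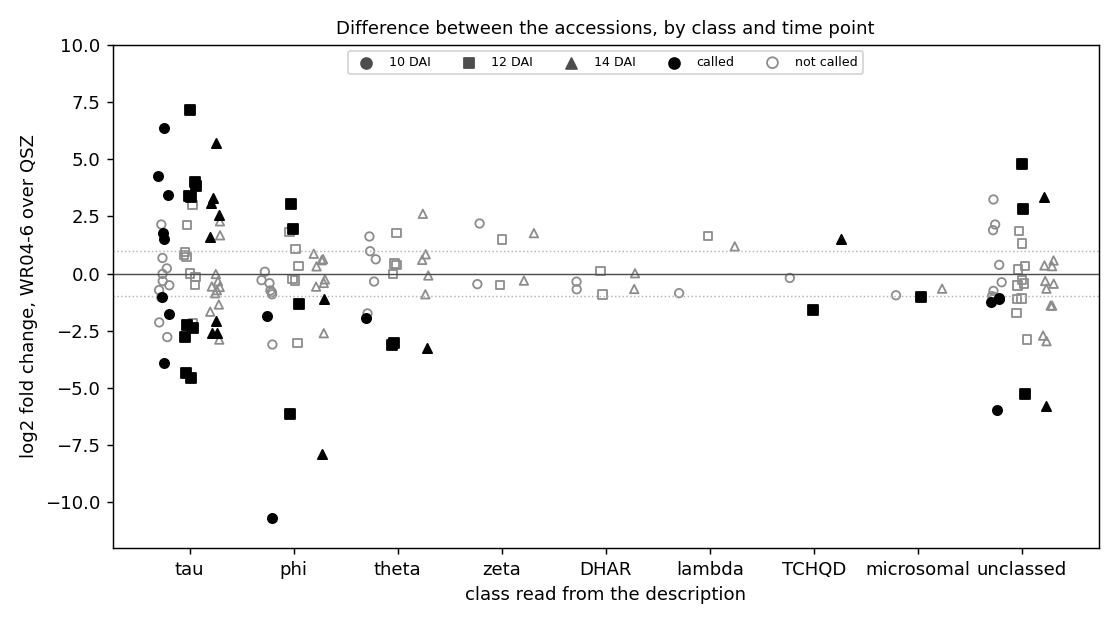
Log2 fold change of WR04-6 over QSZ (y axis) for each tested GST gene, by class (x axis) and time point (marker shape), with DEGs filled and dotted lines at 1 and −1. The 18 values in which 1 group was at 0 are not drawn, and DEGs lie on both sides of 0 in the tau, phi and unclassed genes.

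The tau gene LOC_Os10g38630 (chromosome 10, 20599872 to 20601934, plus strand), described as a partial GSTU6, was abundant in WR04-6 and not read in QSZ. In WR04-6 it had 77.0, 59.2 and 66.5 FPKM at 10 DAI, 56.1, 76.1 and 64.6 FPKM at 12 DAI and 69.2, 62.1 and 79.8 FPKM at 14 DAI, against 0 in all 8 QSZ libraries. Its group means in WR04-6 lay between 65.6 and 70.4 FPKM at the 3 time points. Against the 3 fragments (12 estimated counts) that a group at 0 still allows, it was at least 579.9-fold higher at 10 DAI, 1311-fold at 12 DAI and 1262-fold at 14 DAI, and the lower bound at 10 DAI follows the shallow QSZ libraries there. The bounds cover counting error only. Of all genes tested, 2.52% were at 0 in every QSZ library, and 4 GST genes were. The others were low: LOC_Os01g27340 reached 3.31 FPKM in WR04-6, LOC_Os10g38670 1.42 FPKM and LOC_Os10g22310 0.289 FPKM. LOC_Os10g22310 was called at all 3 time points but was at or under the floor at 10 DAI, where the call was lost without QSZ replicate 2 or 3 (edgeR, BH-adjusted p = 0.0701 and 0.0855), and it was at least 6.57-fold and 2.86-fold higher at 12 and 14 DAI. The reads were aligned to 1 reference genome, and whether QSZ lacks such a gene, carries a diverged copy or does not transcribe it was not tested. LOC_Os03g39850 was at 0 in all WR04-6 libraries, with 0.0617 FPKM in 1 QSZ library. It was not tested and so lies outside the tested genes, of which 0.615% were at 0 in all WR04-6 libraries.

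LOC_Os07g28480, another tau gene (GSTU1, chromosome 7, 16674125 to 16675331, plus strand), was the second large tau contribution of WR04-6. It had 49.9, 126 and 86.2 FPKM at 10 DAI, 105, 112 and 152 FPKM at 12 DAI and 92.3, 81.1 and 85.8 FPKM at 14 DAI in WR04-6, against 7.36 and 6.27, then 6.30, 7.43 and 4.08, and then 6.93, 8.89 and 5.90 FPKM in QSZ. The lowest WR04-6 library stood well above the highest QSZ library. The log2 fold change was 3.44 ± 0.37 (SE), 4.0 ± 0.32 and 3.29 ± 0.31 at 10, 12 and 14 DAI (edgeR, BH-adjusted p = 9.22e-06, 3.67e-07 and 2.12e-06).

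LOC_Os10g38140 (GSTU17), also of the tau class, had 4.73 to 9.02 FPKM in WR04-6 (median 6.14) and 0 to 0.138 FPKM in QSZ (median 0.0661). QSZ held 2 fragments at 10 DAI and 3 at 12 DAI, which makes WR04-6 93.8-fold higher (95% exact Clopper-Pearson counting interval 25.8 to 776) and 161-fold higher (54.7 to 780.3). Without QSZ replicate 2 the 10 DAI value was 54.8-fold, and without QSZ replicate 1 the 12 DAI value was 104-fold. At 14 DAI the log2 fold change was 5.69 ± 0.90 (edgeR, BH-adjusted p = 2.18e-04), or 5.11 without QSZ replicate 1 and 6.43 without QSZ replicate 3. All 9 WR04-6 libraries lay above all 8 QSZ libraries.

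Among the other tau genes higher in WR04-6, LOC_Os10g38580 (GSTU6) had 4.89 to 15.4 FPKM in WR04-6 (median 6.90) and 0.286 to 2.62 FPKM in QSZ (median 0.70). Its log2 fold change was 1.52 ± 0.52, 3.84 ± 0.49 and 3.08 ± 0.48 at 10, 12 and 14 DAI (edgeR, BH-adjusted p = 0.0292, 2.67e-05 and 1.86e-04). LOC_Os10g38730 (GSTU6) had 0.851 to 2.83 FPKM in WR04-6 (median 2.34) and 0.114 to 0.502 FPKM in QSZ (median 0.25), with log2 fold changes of 1.76 ± 0.61, 3.33 ± 0.55 and 2.55 ± 0.54. Both genes were DEGs at all 3 time points. Without 1 library the first became 2.30 at 10 DAI (QSZ replicate 3) and 3.67 at 14 DAI (QSZ replicate 2), and the second 3.22 at 14 DAI (QSZ replicate 1). At 10 DAI both calls were weak, and LOC_Os10g38580 lost its call without WR04-6 replicate 2 or 3 or QSZ replicate 2 (BH-adjusted p = 0.0615, 0.0655 and 0.231), and LOC_Os10g38730 lost its call without WR04-6 replicate 2 or 3 or either QSZ replicate (adjusted p = 0.060 to 0.186). LOC_Os10g38160 (GSTU6) had 1.02 to 2.90 FPKM in WR04-6 and 0 to 2.46 FPKM in QSZ. It was a DEG at 10 DAI only, where QSZ held 2 fragments and WR04-6 was 18.1-fold higher (4.91 to 151), or 10.6-fold without QSZ replicate 2 and at least 5.03-fold without QSZ replicate 3, and lost the call without WR04-6 replicate 2 (adjusted p = 0.0647) or QSZ replicate 2 (adjusted p = 0.169).

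LOC_Os10g38150, described after parC, an auxin-inducible gene of tobacco, lay beside LOC_Os10g38140 and had 1.55 to 4.51 FPKM in WR04-6 (median 2.19) and 0 to 0.426 FPKM in QSZ (median 0.103). It was higher by 4.8 ± 1.22 at 12 DAI and 3.34 ± 1.14 at 14 DAI on the log2 scale (edgeR, BH-adjusted p = 0.00518 and 0.0307), and without QSZ replicate 1 the 12 DAI value was 5.79 and without WR04-6 replicate 3 it was 4.20, and at 10 DAI its difference was 3.24 ± 1.35 (adjusted p = 0.0679). The 14 DAI call was lost without WR04-6 replicate 1 or 2 or QSZ replicate 2 or 3 (adjusted p = 0.0533 to 0.0666). LOC_Os10g38670 (GSTU6) was higher at 12 and 14 DAI, at least 13.8-fold and 7.22-fold, with 0.151 to 1.42 FPKM in those 6 WR04-6 libraries. Its 14 DAI call was lost without WR04-6 replicate 2 or any 1 of the QSZ replicates (adjusted p = 0.0553 to 0.0627).

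On the other side, LOC_Os10g38470 (chromosome 10, 20551209 to 20552421, plus strand), a putative GST with no class in its description, was abundant in QSZ and low in WR04-6. It had 0.904, 2.76 and 2.17 FPKM at 10 DAI, 2.81, 1.79 and 3.70 FPKM at 12 DAI and 0.692, 2.31 and 1.74 FPKM at 14 DAI in WR04-6, against 89.8 and 118, then 53.2, 99.9 and 90.5, and then 71.4, 98.2 and 47.4 FPKM in QSZ. No library of one accession came near those of the other. The log2 fold change was −5.95 ± 0.56, −5.25 ± 0.53 and −5.80 ± 0.55 (edgeR, BH-adjusted p = 2.46e-06, 2.98e-06 and 1.87e-06). It alone held a median of 0.305% of the summed GST level in WR04-6 and 8.80% in QSZ.

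The phi gene LOC_Os01g27360 (GSTF1, chromosome 1, 15281130 to 15283073, minus strand) was at or near 0 in WR04-6. It had 0, 0 and 0.151 FPKM at 10 DAI, 0.380, 0.281 and 0.761 FPKM at 12 DAI and 0.370, 0 and 0 FPKM at 14 DAI in WR04-6, against 11.6 and 141, then 15.8, 31.4 and 31.4, and then 48.1, 19.0 and 11.8 FPKM in QSZ. The QSZ libraries varied widely among themselves, most of all at 10 DAI. At 10 DAI the 3 fragments of WR04-6 put it 1972-fold lower (674 to 9569, counting error only). That value rests on single libraries, since it became 290-fold without QSZ replicate 3, 3169-fold without QSZ replicate 2, 1286-fold and 1296-fold without WR04-6 replicate 1 or 2, and at least 1361-fold without WR04-6 replicate 3, which held all 3 fragments. The call held in each case. At 12 and 14 DAI the log2 fold change was −6.14 ± 1.14 and −7.88 ± 1.29 (edgeR, BH-adjusted p = 5.82e-04 and 2.88e-04), and the 14 DAI value became −7.07 without QSZ replicate 1, while without WR04-6 replicate 1 the WR04-6 group was at 0.

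LOC_Os01g55830 (GSTF2, chromosome 1, 32148052 to 32152116, minus strand), the most abundant GST gene in the seeds of both accessions, was lower in WR04-6. It had 131, 174 and 136 FPKM at 10 DAI, 154, 221 and 231 FPKM at 12 DAI and 166, 178 and 179 FPKM at 14 DAI in WR04-6, against 332 and 594, then 311, 420 and 439, and then 359, 388 and 184 FPKM in QSZ. The libraries did not overlap within a time point, although QSZ replicate 3 of 14 DAI came close to WR04-6. The log2 fold change was −1.87 ± 0.30, −1.33 ± 0.27 and −1.12 ± 0.27 (edgeR, BH-adjusted p = 2.25e-04, 0.00121 and 0.00495). This gene held a median of 22.5% of the summed GST level in WR04-6 and 40.8% in QSZ. With library totals alone its fold changes at 12 and 14 DAI, −0.94 and −0.82, fell short of the limit of 1, as did those at 14 DAI without QSZ replicate 1 (−0.98) or 2 (−0.95).

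**Figure D3:**
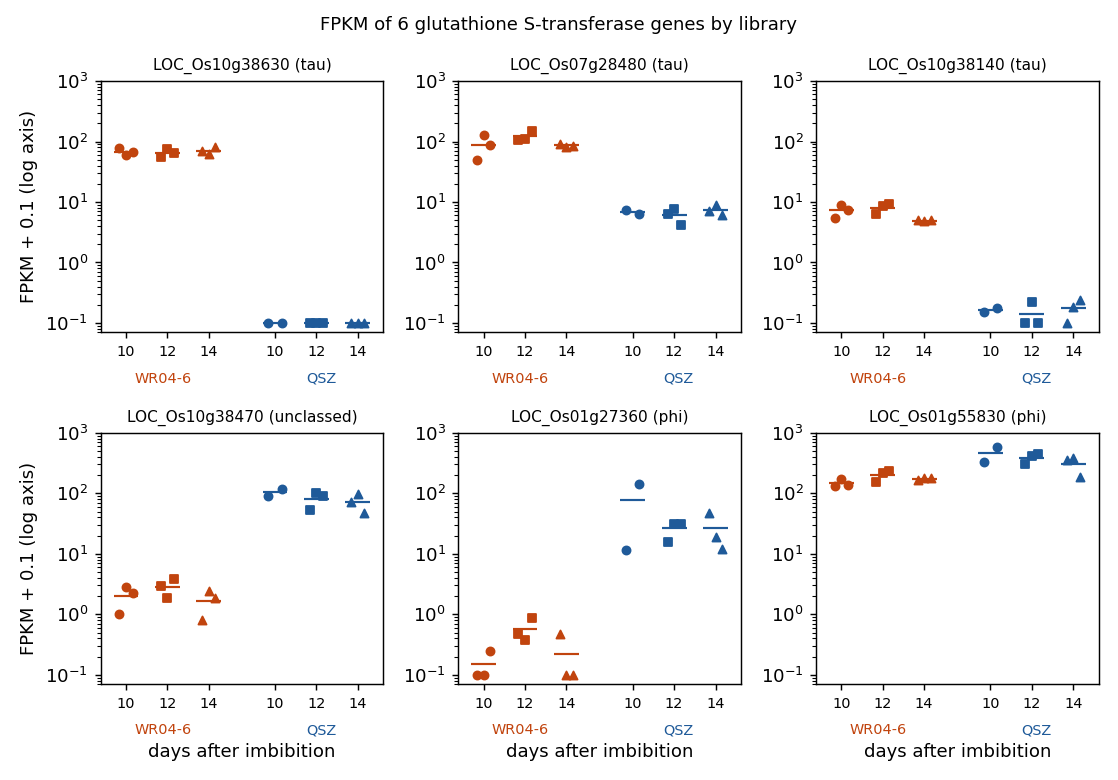
FPKM + 0.1 on a log axis for 6 GST genes, 1 point per library and a line at the mean of each group, with WR04-6 left of QSZ and 10, 12 and 14 DAI in order within each. The upper genes are higher in every WR04-6 library, the lower genes are higher in QSZ, and points at 0.1 are libraries at 0.

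Further tau genes were lower in WR04-6. LOC_Os01g37750 (GSTU6) had 0.545 to 3.00 FPKM in WR04-6 (median 1.03) and 4.62 to 27.6 FPKM in QSZ (median 11.1), and its log2 fold change was −3.91 ± 0.64, −4.35 ± 0.63 and −2.08 ± 0.57 at 10, 12 and 14 DAI (edgeR, BH-adjusted p = 2.59e-04, 7.44e-05 and 0.00986). The 10 DAI value became −2.27 without QSZ replicate 3 and −4.66 without QSZ replicate 2. LOC_Os03g44170 (GSTU1) had 0.460 to 1.21 FPKM in WR04-6 and 0.605 to 6.48 FPKM in QSZ, with log2 fold changes of −1.77 ± 0.59, −2.25 ± 0.55 and −2.61 ± 0.55, and QSZ replicate 3 of 12 DAI lay within the WR04-6 range. Its 10 DAI call was lost without WR04-6 replicate 1, 2 or 3 or QSZ replicate 2 of that day (adjusted p = 0.0529 to 0.153). LOC_Os10g38720 (GSTU6) had 0.795 to 3.70 FPKM in WR04-6 (median 2.02) and 2.50 to 12.7 FPKM in QSZ (median 5.92), and was lower at 12 and 14 DAI, with log2 fold changes of −2.39 ± 0.59 and −2.59 ± 0.60, or −2.99 at 12 DAI without WR04-6 replicate 3 and −1.55 at 14 DAI without QSZ replicate 1.

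LOC_Os10g38710 (GSTU6) had 0 to 0.10 FPKM in WR04-6 and 0 to 2.96 FPKM in QSZ. It was at least 7.46-fold lower at 10 DAI, where all 3 WR04-6 libraries were at 0, and its log2 fold change at 12 DAI was −4.57 ± 1.37 (edgeR, BH-adjusted p = 0.0157, or 0.0684 without QSZ replicate 3 and 0.0589 without WR04-6 replicate 1). LOC_Os10g38340 (GSTU6) was a DEG at 12 DAI only, with 0.284, 0.277 and 0.143 FPKM in WR04-6 and 0.908, 1.26 and 1.60 FPKM in QSZ, which gave a log2 fold change of −2.76 ± 1.01 (adjusted p = 0.0358). That call was lost without any 1 of the WR04-6 replicates or QSZ replicate 2 or 3 of that day (adjusted p = 0.0610 to 0.110) and with library totals alone (adjusted p = 0.0567).

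Several of the most abundant GST genes differed by less than 1 on the log2 scale at most time points. LOC_Os10g38740 (GSTU6), the second most abundant, had 52.0 to 87.9 FPKM in WR04-6 (median 55.7) and 51.7 to 91.2 FPKM in QSZ (median 84.1). Its log2 fold change was −0.72 ± 0.27, −0.51 ± 0.25 and −0.57 ± 0.25. The cytosolic DHAR1 gene LOC_Os05g02530 had 44.9 to 73.1 FPKM in WR04-6 (median 65.4) and 35.2 to 71.0 FPKM in QSZ (median 51.3), with log2 fold changes of −0.35 ± 0.27, 0.10 ± 0.24 and 0.01 ± 0.24. The zeta gene LOC_Os02g35590 had 33.5 to 45.3 FPKM in WR04-6 (median 37.4) and 23.4 to 56.5 FPKM in QSZ (median 43.0), with −0.46 ± 0.25, −0.51 ± 0.23 and −0.31 ± 0.23. None of the 3 reached a log2 fold change of 1 at any time point. The microsomal gene LOC_Os03g50130 had 23.6 to 44.7 FPKM in WR04-6 (median 31.4) and 25.3 to 63.9 FPKM in QSZ (median 48.9). Its log2 fold change of −0.95 ± 0.27, −1.01 ± 0.25 and −0.66 ± 0.25 passed the limit at 12 DAI by a narrow margin, which it lost without WR04-6 replicate 1 (−0.86), QSZ replicate 2 (−0.96) or QSZ replicate 3 (−0.88), and with library totals alone (−0.62). LOC_Os10g38590 (OsGSTU9) had 21.6 to 35.8 FPKM in WR04-6 (median 24.2) and 17.3 to 48.1 FPKM in QSZ (median 28.3). It was a DEG at 10 DAI only, at −1.0 ± 0.20, and fell short without WR04-6 replicate 2 (−0.94) or QSZ replicate 3 (−0.88) and with library totals alone (−0.82).

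Neighbouring GST genes differed in both directions. Members no more than 100 kb apart formed 6 arrays with 36 of the 62 genes. The largest held 17 genes on chromosome 10, from 20431775 to 20646973 in the positions of the deposited table, of which 16 were tested. Of these, WR04-6 had 5 higher and 3 lower at 10 DAI, 6 higher and 4 lower at 12 DAI, and 7 higher and 2 lower at 14 DAI. The higher genes were 31.2%, 37.5% and 43.8% of the 16 at 10, 12 and 14 DAI, beside 12.1%, 16.3% and 10.5% of all genes, and the lower ones 18.8%, 25.0% and 12.5%, beside 11.4%, 13.2% and 10.9%. The summed level of the array was nevertheless 165 to 235 FPKM in WR04-6 (median 181) and 135 to 270.3 FPKM in QSZ (median 214), so the accessions overlapped. The genes that carried that sum differed, with LOC_Os10g38630, LOC_Os10g38740 and LOC_Os10g38590 leading in WR04-6 and LOC_Os10g38470, LOC_Os10g38740 and LOC_Os10g38590 leading in QSZ. Most genes of the array share the description GSTU6, and reads of near-identical copies may have been divided among them, so the values of single copies are uncertain.

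**Figure D4:**
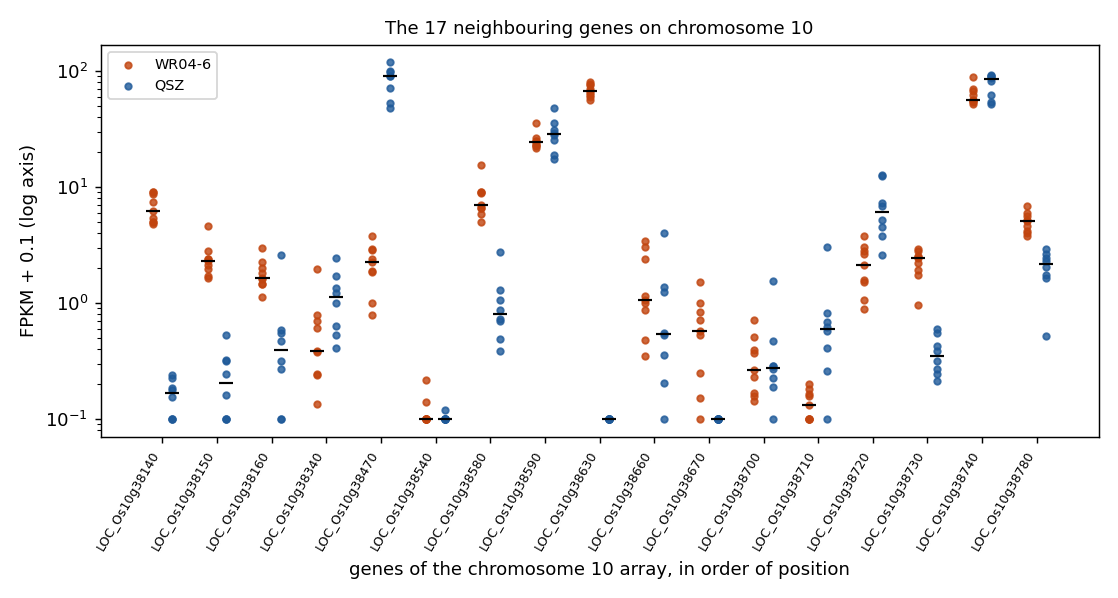
FPKM + 0.1 on a log axis of the 17 neighbouring GST genes on chromosome 10 in order of position, with 1 point per library (WR04-6 left of QSZ) and a bar at the median. LOC_Os10g38470 and LOC_Os10g38630 stand far apart in opposite directions, while LOC_Os10g38590 and LOC_Os10g38740 between and beyond them overlap.

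The array of 7 genes on chromosome 1, from 15170345 to 15412081, held 5 GSTF1 genes. Its summed level was 24.5 to 73.2 FPKM in WR04-6 (median 35.1) and 22.8 to 154 FPKM in QSZ (median 35.1). Of its 7 genes, 1 was higher and 2 lower in WR04-6 at 10 DAI, 3 higher and 1 lower at 12 DAI, and 1 higher and 1 lower at 14 DAI. In either direction this was 42.9%, 57.1% and 28.6% of the 7, beside 23.6%, 29.5% and 21.3% of all genes. LOC_Os01g27340 had 0.107 to 3.31 FPKM in WR04-6 and 0 in QSZ, and was higher by at least 3.54-fold at 10 DAI, 7.66-fold at 12 DAI and 21.5-fold at 14 DAI, with the 10 DAI call lost without QSZ replicate 3 (edgeR, BH-adjusted p = 0.0569). LOC_Os01g27260 was higher at 12 DAI only, with 3.79, 4.70 and 4.52 FPKM in WR04-6 and 1.04, 0.204 and 0 FPKM in QSZ (log2 fold change 3.03 ± 0.96, adjusted p = 0.0181, or 0.0676 without QSZ replicate 2, and 4.97 without QSZ replicate 1). The array of 4 phi genes on chromosome 3, described as F10, F11 and F12, had 27.7 to 59.5 FPKM in WR04-6 (median 39.9) and 18.5 to 51.5 FPKM in QSZ (median 30.3), and 1 of the 4 was a DEG, at 12 DAI. That gene, LOC_Os03g04240 (F11), had 9.95, 8.83 and 11.8 FPKM in WR04-6 and 4.51, 1.08 and 0.580 FPKM in QSZ (log2 fold change 1.96 ± 0.57, adjusted p = 0.0120, or 0.0527 without QSZ replicate 2, and a log2 fold change of 3.21 without QSZ replicate 1).

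Over time within an accession, 0 to 5 of the GST genes were DEGs in a contrast, most of them in QSZ between 10 and 12 DAI. In WR04-6, 0 of 60 were DEGs at 12 over 10 DAI and 0 at 14 over 10 DAI, where 0.0273% and 0.241% of all genes were, while 3 and 4 had an unadjusted edgeR p below 0.05 and DESeq2 called 0 and 2. At 14 over 12 DAI, 1 of 60 was higher (1.67%, beside 0.652% of all genes) and 0 lower. In QSZ, 0 were higher and 5 lower (8.33%) at 12 over 10 DAI, where 5.55% of all genes were higher and 7.72% lower, and 1 was higher at 14 over 12 DAI (1.67%, beside 0.255%). At 14 over 10 DAI in QSZ, edgeR called 0, beside 1.62% of all genes (8 at an unadjusted p below 0.05), and DESeq2 called 3. The unadjusted and DESeq2 counts have no share of all genes beside them, so they do not set GST genes apart. The contrasts share libraries.

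The 5 genes lower in QSZ at 12 over 10 DAI were 2 phi genes, a tau gene, the lambda gene and LOC_Os01g70770. LOC_Os01g27260 had 2.08 and 4.46 FPKM at 10 DAI and 1.04, 0.204 and 0 FPKM at 12 DAI (log2 fold change −2.85 ± 1.01, edgeR, BH-adjusted p = 0.0485). LOC_Os03g04240 had 10.7 and 9.38 FPKM at 10 DAI and 4.51, 1.08 and 0.580 FPKM at 12 DAI (−2.19 ± 0.62, adjusted p = 0.0176). LOC_Os10g38580 changed by −1.45 ± 0.50 (adjusted p = 0.0435). The lambda gene LOC_Os10g38660 had 3.88 and 1.13 FPKM at 10 DAI and 0.103, 0.429 and 0 FPKM at 12 DAI (−3.69 ± 1.23, adjusted p = 0.0379). LOC_Os01g70770, described as GST 3, had 15.8 and 29.8 FPKM at 10 DAI and 10.9, 13.1 and 5.86 FPKM at 12 DAI (−1.06 ± 0.37, adjusted p = 0.0434), and it was also lower in WR04-6 at 10 DAI, at −1.24 ± 0.37 (adjusted p = 0.0141, or 0.163 without QSZ replicate 3 and 0.0518 without WR04-6 replicate 3). The 10 DAI side of these 5 rests on 2 shallow libraries, and each call was lost without at least 1 of the 5 QSZ libraries compared. Leaving out 1 of the 17 libraries ended the call of LOC_Os01g27260 in 15 fits, of LOC_Os10g38580 in 10, of LOC_Os01g70770 in 9, of LOC_Os10g38660 in 3 and of LOC_Os03g04240 in 2. Without QSZ 10 DAI replicate 2 the adjusted p was 0.0734 for LOC_Os01g27260, 0.0807 for LOC_Os03g04240 and 0.249 for LOC_Os10g38660, and without replicate 3 it was 0.218 for LOC_Os01g27260, 0.557 for LOC_Os10g38580 and 0.428 for LOC_Os01g70770. Leaving out 1 library also made some of these changes larger, to −4.79 for LOC_Os01g27260 and −3.45 for LOC_Os03g04240 without QSZ 12 DAI replicate 1, and −5.34 for LOC_Os10g38660 without QSZ 12 DAI replicate 2. The tissue markers of QSZ moved with this step too. The summed green shoot genes stood at 190 to 489 FPKM at 10 DAI and 89.4 to 159 FPKM at 12 DAI, with no overlap. The root genes stood at 4.95 to 11.4 FPKM at 10 DAI and 1.42 to 6.26 FPKM at 12 DAI, and the storage genes at 31180 to 53270 FPKM at 10 DAI and 47930 to 84960 FPKM at 12 DAI, both with overlap. The paper places the first germination of QSZ at 12 DAI, so this step also spans a change of stage. The part of these tissues and of that stage in the 5 falls was not tested.

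The GST gene called over time in WR04-6 was the TCHQD gene LOC_Os04g35560 (chromosome 4, 21662078 to 21664360, minus strand). It had 1.70, 1.74 and 6.25 FPKM at 10 DAI, 1.72, 2.73 and 1.21 FPKM at 12 DAI and 17.4, 13.1 and 7.59 FPKM at 14 DAI in WR04-6, against 2.26 and 4.26, then 4.33, 4.52 and 4.33, and then 3.26, 4.56 and 3.24 FPKM in QSZ. All WR04-6 libraries of 14 DAI exceeded all other libraries of the gene, while QSZ stayed within a narrow range. In WR04-6 the change at 14 over 12 DAI was 2.74 ± 0.51 (edgeR, BH-adjusted p = 0.0210), which had an adjusted p = 0.0513 to 0.140 without WR04-6 replicate 1, 2 or 3 of 12 DAI or replicate 1 or 2 of 14 DAI. The gene was lower in WR04-6 at 12 DAI, at −1.60 ± 0.49 (adjusted p = 0.0151, or 0.0643 without WR04-6 replicate 3), and higher at 14 DAI, at 1.5 ± 0.49 (adjusted p = 0.0244). The 14 DAI call was lost without WR04-6 replicate 1 or 2 or QSZ replicate 1 or 3 (adjusted p = 0.0531 to 0.0937). It was the only GST gene called in opposite directions at different time points.

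The tau gene LOC_Os03g57200 (GSTU1) had its highest levels at 14 DAI in both accessions. It had 1.61, 1.05 and 1.21 FPKM at 10 DAI, 0.894, 1.91 and 0.927 FPKM at 12 DAI and 7.36, 10.7 and 6.69 FPKM at 14 DAI in WR04-6, against 0.233 and 0.256, then 0.150, 0.114 and 0, and then 4.61, 0.766 and 0.840 FPKM in QSZ. In QSZ the change at 14 over 12 DAI was 4.43 ± 0.87 (edgeR, BH-adjusted p = 0.0451) and the call was lost in 14 of the 17 fits that left out a library (adjusted p up to 0.117), with the value at 3.02 without QSZ replicate 1 of 14 DAI. In WR04-6 the same step was 2.71 ± 0.76 and did not pass (adjusted p = 0.131). WR04-6 was higher by 3.39 ± 0.85 at 12 DAI (adjusted p = 0.00456).

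Whether the accession difference itself changed over the 3 time points was tested with the accession by time interaction. It was called in 2 of 60 GST genes, beside 8.98% of all genes. They were LOC_Os04g35560 (BH-adjusted p = 0.0335) and LOC_Os12g10720 (adjusted p = 0.0188). LOC_Os12g10720, a GST that also carries the tyrosine metabolism annotation of the zeta genes, had 25.6, 25.8 and 22 FPKM at 10 DAI, 25.5, 27.6 and 27.7 FPKM at 12 DAI and 23.7, 21.3 and 21.2 FPKM at 14 DAI in WR04-6, against 43.5 and 44.1, then 24.7, 28.3 and 22.7, and then 25.0, 31.8 and 29.3 FPKM in QSZ. The QSZ libraries of 10 DAI stood above the rest, and those of 12 DAI overlapped with WR04-6. The log2 fold change was −1.08 ± 0.11, −0.28 ± 0.10 and −0.66 ± 0.10 at 10, 12 and 14 DAI, and the value at 10 DAI fell short of the limit with library totals alone (−0.89).

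**Figure D5:**
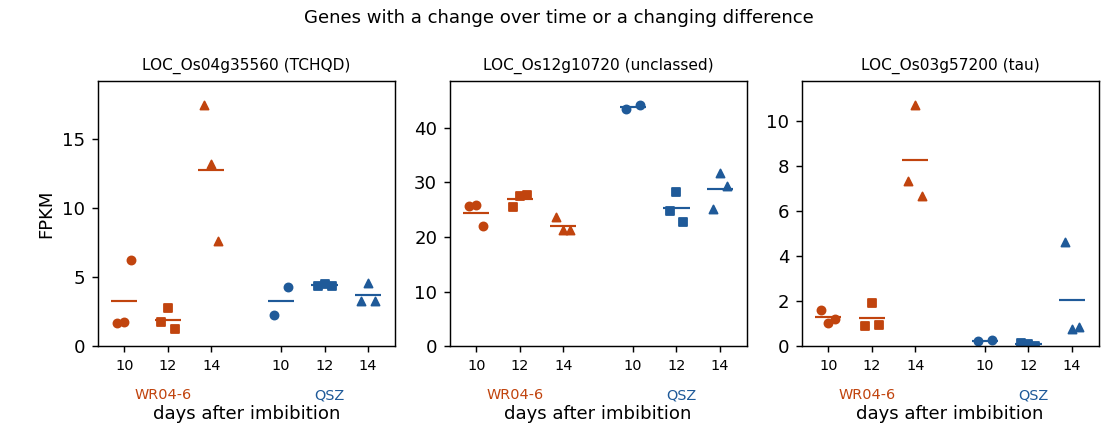
FPKM of 3 GST genes, 1 point per library and a line at the group mean, with WR04-6 left of QSZ and 10, 12 and 14 DAI in order. LOC_Os04g35560 reaches 7.59 to 17.4 FPKM in WR04-6 at 14 DAI only, LOC_Os12g10720 is highest in QSZ at 10 DAI, and LOC_Os03g57200 is highest in WR04-6 at 14 DAI.

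Other genes annotated to the glutathione pathway were taken from the table, which gave 100 genes that are not members, 97 of them tested. The annotation is broad. The list also holds 3 genes described as glutathione transferase GST 23, and genes described as cyclin-P4-1-like, vesicle transport protein GOT1 or translocase of chloroplast 159. Its counts therefore do not describe the pathway alone. Of the 97, WR04-6 had 11 higher and 14 lower at 10 DAI, 19 higher and 11 lower at 12 DAI, and 10 higher and 9 lower at 14 DAI. In either direction this was 25.8%, 30.9% and 19.6%, close to the 23.6%, 29.5% and 21.3% of all genes. Neither of the 2 glutathione reductase genes, which regenerate reduced glutathione, was a DEG, because both stayed under the fold change limit. LOC_Os03g06740 was higher in WR04-6 by 0.83, 0.36 and 0.52 on the log2 scale at 10, 12 and 14 DAI (edgeR, BH-adjusted p = 5.44e-04, 0.0338 and 0.00565). LOC_Os02g56850 differed by 0.49, 0.03 and 0.46 (adjusted p = 0.0442, 0.895 and 0.0367). Of the 17 glutaredoxin genes tested, which use glutathione to reduce disulfides, 1 was higher at each time point, while 6 were lower at 10 DAI, 2 at 12 DAI and 2 at 14 DAI. The lower ones were 35.3%, 11.8% and 11.8% of the 17, beside 11.4%, 13.2% and 10.9% of all genes. Of the 4 glutathione peroxidase genes, 1 was lower, at 12 DAI.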

How the data were processed

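RNA of the seeds was sequenced as poly(A) libraries made with a strand-marking kit. The submitters' processing notes name cutadapt 1.9, HISAT2 2.0.4 and StringTie 1.3.4d. Positions are those of the deposited table, on Nipponbare gene models with MSU locus identifiers, and neither the release nor the strand setting is stated in the sources. The authors deposited FPKM values and estimated counts per gene and library, the counts being estimates from coverage in which 1 fragment stands for about 4. Counts were tested with edgeR 4.0.16 (quasi-likelihood, TMM, 6 groups sharing 1 spread) in R 4.3.3, on genes with at least 0.1 FPKM in 2 or more libraries. This test returns no SE. The SE given was computed back, as the size of the log2 fold change over the square root of the test's F statistic. It is approximate, most of all for genes with few fragments. DESeq2 1.42.0 and limma 3.58.1 on log2(FPKM + 0.1) and log2(FPKM + 1) were among 10 alternatives, besides 17 fits that each left out a library. The members and lists were chosen with earlier results of these data known. Genes named are the 10 most abundant, those apart at all 3 time points (up to 10 in each direction), the 5 largest DEGs of each direction and time point averaging 1 FPKM in either accession, those called over time or in the interaction, and those at 0 in 1 accession with a mean of 0.5 FPKM in the other. Replicates are described as independent biological samples. Where no other label says so, p-values measure the spread between these samples. No sequences were used.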

Additional observations from a re-analysis of the deposited data

Results flagged for a closer look

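The accession difference of LOC_Os04g35560 (TCHQD class) changed over the 3 time points (accession by time interaction, edgeR, BH-adjusted p = 0.0335). The log2 fold changes were −0.19, −1.60 and 1.5 at 10, 12 and 14 DAI, and 11 of 26 other fits gave an interaction p above 0.05, up to 0.0823.

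The accession difference of LOC_Os12g10720 also changed over the time points (edgeR, BH-adjusted p = 0.0188), with log2 fold changes of −1.08, −0.28 and −0.66. Of 26 other fits, 3 gave an interaction p above 0.05, without WR04-6 12 DAI replicate 2 (0.0539), WR04-6 12 DAI replicate 3 (0.0512) or QSZ 10 DAI replicate 2 (0.0547).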

How the results depend on the processing

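The GST counts of the accession contrasts were recomputed under 10 alternatives and without each library. At 10 DAI, DESeq2 and limma on log2(FPKM + 0.1) called 13 higher, and limma called 7 lower, or 4 lower with log2(FPKM + 1). At 12 DAI, limma called 20 higher with log2(FPKM + 0.1) and 5 lower with log2(FPKM + 1). By class, limma with log2(FPKM + 0.1) called 1 zeta gene higher at each time point. It called 2, 1 and 2 theta genes higher at 10, 12 and 14 DAI. DESeq2 called 1 zeta gene higher at 10 and at 14 DAI, and 1 theta gene at 14 DAI. Library totals gave 1 theta gene higher at 10 DAI and 2 at 14 DAI. With log2(FPKM + 1), limma called no zeta or theta gene. Leaving out a library gave at 10 DAI 5 to 10 higher and 8 to 13 lower, at 12 DAI 11 to 15 higher and 9 to 14 lower, and at 14 DAI 8 to 13 higher and 5 to 8 lower. The interaction was called in 4 GST genes by DESeq2 and by limma with log2(FPKM + 1), and in 0 to 4 without a library. In WR04-6, 14 over 12 DAI gave 2 with counts divided by 4, DESeq2, either limma fit or the 2 groups alone (0 to 2 without a library), and 14 over 10 DAI gave 2 with DESeq2 and either limma fit and 1 with the 2 groups alone (0 to 1). No library left out gave a call at 12 over 10 DAI in WR04-6 (0). In QSZ, 12 over 10 DAI gave 3 with median-ratio scaling and 0 with the 2 groups alone (2 to 6 without a library), 14 over 12 DAI gave 0 with limma on log2(FPKM + 1) and 0 with the 2 groups alone (0 to 4), and 14 over 10 DAI gave 3 with DESeq2 (0 to 2). No shares of all genes under these settings stand beside the counts, which show only how the GST calls moved. The causes were not tested.

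Deviations of same-numbered libraries from their group means had r of −0.376 to 0.232 over 40 pairs, 7 above 0.1. Differently numbered libraries had r of −0.239 to 0.402 over 80 pairs, 21 above 0.1. With 2 or 3 libraries in a group, these values cannot decide whether the replicate numbers pair the samples. With the replicate number as a block, the counts at 10 DAI were 7 higher and 11 lower, at 12 DAI 14 higher and 12 lower, and at 14 DAI 11 higher and 7 lower, and the block gave 1 call in the interaction, 1 in QSZ at 12 over 10 DAI and 0 at 14 over 12 DAI. Over the named genes, 1719 values under alternatives held 1543 on the same side of the limits, 176 that lost the call and 0 that reversed. All came from results already called, so a call could only be kept, lost or reversed. Of them, 1088 left out 1 library, whether or not the contrast used it, and 118 of these lost the call. With limma on log2(FPKM + 1), 21 of 64 lost it. QSZ at 10 DAI has 2 libraries of the lowest depth, which limits each comparison with it, and genes under 1 FPKM rest on few fragments.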

Other observations

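The genes of this section lie outside the GST rule and were chosen after their values were seen. A further 3 genes are described as glutathione transferase GST 23. LOC_Os09g29200, the most abundant of them, averaged 64.6 ± 15.3, 89.1 ± 13.3 and 54.3 ± 16.0 FPKM at 10, 12 and 14 DAI in WR04-6 (SD, n = 3) and 60.2 ± 50.8 (n = 2), 15.2 ± 5.35 and 20.5 ± 3.99 FPKM in QSZ (n = 3), and was higher in WR04-6 at 12 and 14 DAI (log2 fold change 2.18 ± 0.38 and 1.12 ± 0.37, SE). LOC_Os05g34150 averaged 10.5, 13.1 and 9.93 FPKM in WR04-6 and 17.1, 29.4 and 26.1 FPKM in QSZ, and was lower at 12 and 14 DAI (−1.53 ± 0.25 and −1.68 ± 0.25). LOC_Os01g72170 averaged 1.58, 1.25 and 1.68 FPKM in WR04-6 and 0.494, 0.181 and 0.256 FPKM in QSZ, and was higher at 12 DAI only (2.40 ± 0.91, edgeR, BH-adjusted p = 0.0427).

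Outside the transferases, LOC_Os03g16940, a glyoxalase family gene, had the lowest fold changes named here among abundant pathway genes. It averaged 20.6, 37.3 and 18.7 FPKM at 10, 12 and 14 DAI in WR04-6 and 395, 695 and 367 FPKM in QSZ, with log2 fold changes of −4.50 ± 0.60, −4.60 ± 0.58 and −4.59 ± 0.59. LOC_Os01g07950, the mitochondrial glutaredoxin S1, averaged 49.9, 52.3 and 52.0 FPKM in WR04-6 and 8.54, 4.98 and 5.37 FPKM in QSZ (2.31 ± 0.27, 3.01 ± 0.23 and 2.99 ± 0.23). Both were DEGs at all 3 time points.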
